A study of Mus musculus with 30 samples.

Results

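The CC chemokines followed here are Ccl2, Ccl3, Ccl4, Ccl5, Ccl6, Ccl7, Ccl9, Ccl17 and Ccl22, a set of 9 secreted chemoattractants among 11262 genes tested in mouse dendritic cells. They were picked by name, each was read from its brightest Cy5 probe, and all 9 had a probe that passed the filter on dim signal. The cells were bone marrow-derived dendritic cells of C57BL/6 mice, taken with CD11c magnetic beads. The title of the series speaks of MHCII low and high subpopulations, but no sample label gives one, so each array is read here as the whole bead-selected population. All donors carried a CD11c-Cre transgene, which expresses the Cre recombinase under the promoter of the CD11c gene. In the knockout (KO) the transgene was combined with IRF-4 flox/flox alleles, which Cre deletes in cells that express it, and in the control it was present alone. The 6 groups, with 5 arrays each, were KO unstimulated, KO LPS 6 h, KO LPS 24 h, control unstimulated, control LPS 6 h and control LPS 24 h, where LPS is bacterial lipopolysaccharide, the ligand of the receptor TLR4. The labels call the 5 arrays of a group biological replicates without saying whether each was a mouse or a culture, so p-values cover only the spread among these samples, which may be technical. A level is the log2 ratio of the sample (Cy5) to a universal mouse reference RNA (Cy3) on the same array, and every array had the same dye orientation.

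Chemokines are small secreted proteins that steer leukocytes through G protein-coupled receptors. The inflammatory CC chemokines are induced by Toll-like receptor signals through NF-kB and recruit monocytes, neutrophils and effector T cells. Ccl17 and Ccl22 differ from them in that both are ligands of the receptor CCR4, which is carried by Th2 cells, regulatory T cells and skin-homing T cells, and in that interleukin-4 signals through STAT6 also induce them. IRF4, the transcription factor deleted here, binds DNA with partners such as PU.1 and BATF and is needed for part of the dendritic cell programme.

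The 5 promoter windows that RefSeq (build GRCm38.p6) gave for members run from 250 bases before to 50 bases after the gene start. The windows of Ccl17 and Ccl22, which moved together in the data, and of Ccl3, an inflammatory chemokine, are shown 5′ to 3′ on the strand of the gene. Capitals mark every match to the motifs searched.
Ccl17, chr8:94810203-94810502, plus strand: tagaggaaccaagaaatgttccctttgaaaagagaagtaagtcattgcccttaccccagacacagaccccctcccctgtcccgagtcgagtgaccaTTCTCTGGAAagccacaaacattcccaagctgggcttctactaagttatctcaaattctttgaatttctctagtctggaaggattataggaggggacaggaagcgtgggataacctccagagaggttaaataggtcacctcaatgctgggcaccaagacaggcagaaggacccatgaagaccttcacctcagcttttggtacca
Ccl22, chr8:94745434-94745733, plus strand: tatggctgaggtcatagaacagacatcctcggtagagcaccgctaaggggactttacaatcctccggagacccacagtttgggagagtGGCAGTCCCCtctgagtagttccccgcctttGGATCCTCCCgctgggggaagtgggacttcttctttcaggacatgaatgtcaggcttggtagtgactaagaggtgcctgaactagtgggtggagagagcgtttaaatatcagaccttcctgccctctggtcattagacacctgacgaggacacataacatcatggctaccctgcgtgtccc
Ccl3, chr11:83649329-83649628, minus strand: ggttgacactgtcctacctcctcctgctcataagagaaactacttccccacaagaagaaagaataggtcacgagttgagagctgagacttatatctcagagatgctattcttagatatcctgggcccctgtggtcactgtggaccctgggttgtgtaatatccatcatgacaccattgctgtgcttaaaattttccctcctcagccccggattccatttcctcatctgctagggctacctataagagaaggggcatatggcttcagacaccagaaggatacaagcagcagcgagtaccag
The motifs, each searched on both strands, were GGGNNNNNCC for NF-kB, GGAANNGAAA for IRF4 with PU.1, GAAANNGAAA for the IRF family, TTCNNNNGAA for STAT6 and TGANTCA for AP-1. The Ccl17 window held 1 STAT6 match, TTCTCTGGAA, whose first base lay at -154 from the gene start. The Ccl22 window held 2 NF-kB matches, which read GGCAGTCCCC and GGATCCTCCC on this strand and began at -162 and -131. In the Ccl3 window none of the 5 motifs had a match. The Ccl9 window held 1 NF-kB match and 1 AP-1 match, and the Ccl6 window held 0. Of 32851 RefSeq windows of the same 300 bases, 50.8% held the NF-kB motif, 6.95% the STAT6 motif, 7.81% the AP-1 motif, 3.44% the IRF motif and 2.72% the IRF4 with PU.1 motif, so a match to the NF-kB letters is common.

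Irf4 itself checked the genotype labels. In unstimulated cells its log2 ratio was -2.20, -0.85, -1.06, -0.84 and -2.51 in the 5 KO arrays, against 1.51, 1.16, 1.28, 1.79 and 1.32 in the 5 control arrays, and in KO replicate 5 the probe was not well above background. Irf4 was lower in KO cells, with log2 differences of -2.90 ± 0.27 without stimulation (SE; limma, adjusted p = 3.6e-08), -2.42 at 6 h and -2.17 at 24 h, with no overlap of KO and control arrays in any treatment. Irf4 rose with LPS in KO cells too, by a log2 difference of 1.38 at 6 h (adjusted p = 0.000318), and whether its probe lies in the deleted part was not examined here. Arrays had median Cy5 signals between 101 and 151, with 44.8 to 66.1% of 41174 probes well above background. Of the 30 arrays 26 had an expression profile closest to the mean of the other arrays of their own group. Replicate 3 of control LPS 6 h and replicate 2 of control LPS 24 h sat on 1 slide scanned on a later day than the rest, and both were closest to unstimulated control cells (r = 0.71 and 0.54, against -0.33 and 0.23 with their own groups). Control LPS 6 h replicate 2 was closest to KO LPS 6 h, and KO LPS 24 h replicate 4 to control LPS 24 h. No slide held KO and control arrays of the same treatment, so slide and genotype cannot be told apart within a treatment.

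**Figure D1:**
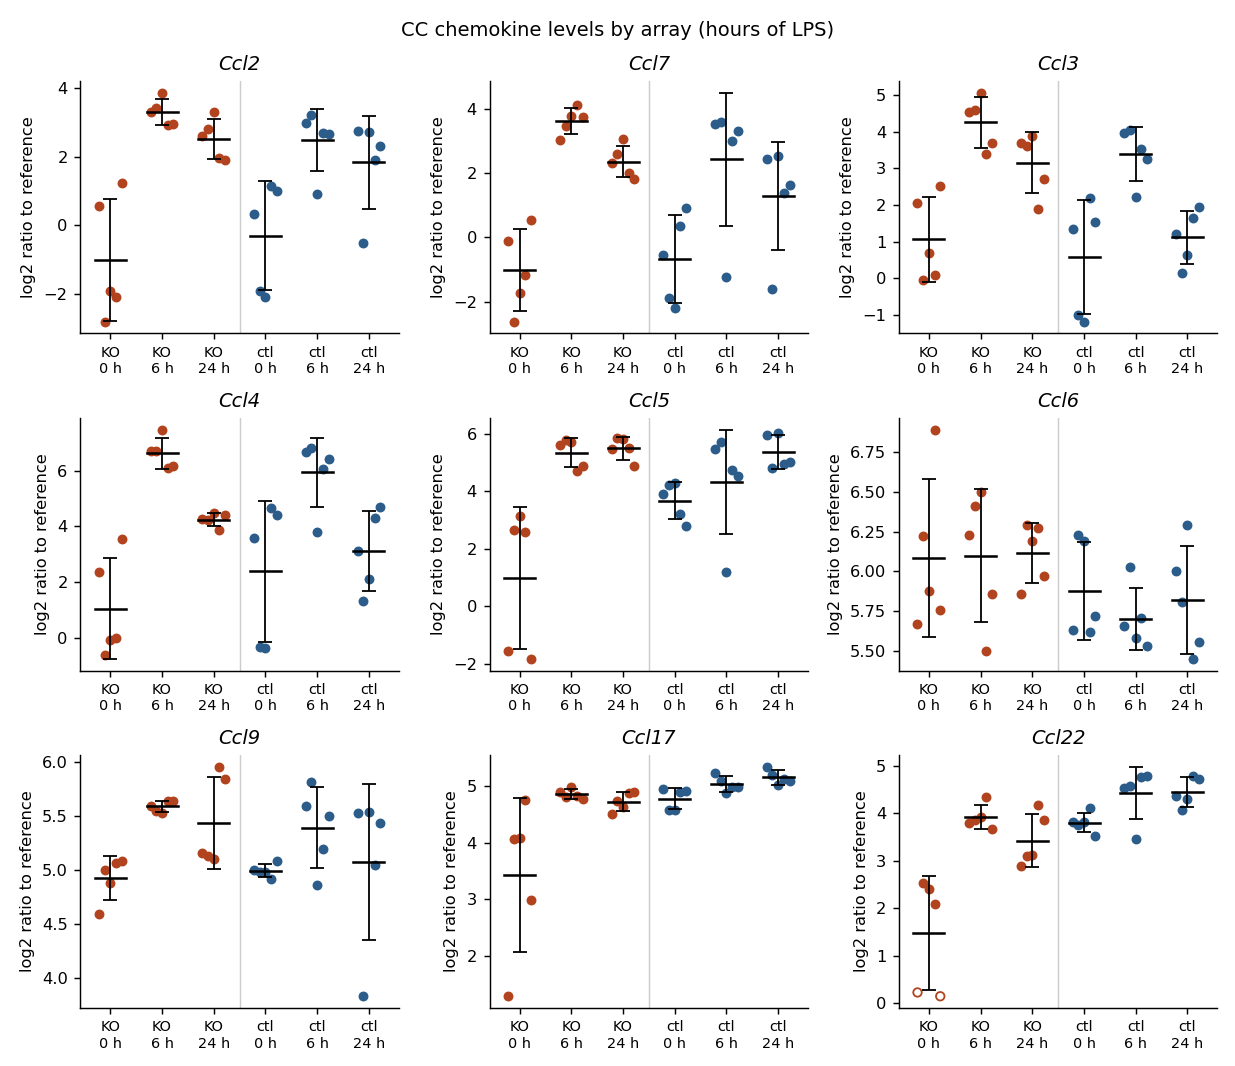
Log2 ratio to the reference RNA (y axis) of each CC chemokine on each array, by genotype and hours of LPS (x axis; ctl, control). Bars are the mean and SD of 5 arrays, and open points were not well above background, which was the case for Ccl22 in 2 KO unstimulated arrays.

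In unstimulated cells Ccl5, Ccl17 and Ccl22 were lower in KO cells, and the other 6 members did not pass the test. Of all genes tested, 6.94% were called higher and 7.13% lower in KO cells in this comparison (limma, adjusted p under 0.05), and among the 9 members 0 were called higher and 3 lower.

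Ccl22 had log2 ratios of 0.23, 2.53, 2.41, 2.09 and 0.15 in the 5 KO unstimulated arrays, against 3.81, 3.76, 3.81, 4.10 and 3.53 in the 5 control unstimulated arrays. The highest KO array lay below the lowest control array, and the probe was well above background in only 3 of the 5 KO arrays. The log2 difference was -2.32 ± 0.37 (SE; limma, adjusted p = 8.03e-05), in which the dim arrays give only a bound, and the exact two-sided permutation test over the arrays gave p = 0.00794, the smallest that 5 against 5 arrays allow. With the log ratios of the scanner software the difference was -1.55 and did not pass (adjusted p = 0.117).

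Ccl17 had log2 ratios of 1.29, 4.06, 4.08, 4.75 and 2.98 in KO unstimulated arrays, against 4.94, 4.57, 4.58, 4.89 and 4.91 in control unstimulated arrays. KO replicates 1 and 5 were far below the rest and KO replicate 4 lay within the control range. The log2 difference was -1.35 ± 0.34 (adjusted p = 0.00797), and it did not pass when only these 10 arrays were fitted (adjusted p = 0.107).

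Ccl5, which attracts T cells and monocytes, had log2 ratios of -1.57, 2.65, 3.13, 2.58 and -1.84 in KO unstimulated arrays, against 3.91, 4.21, 4.27, 3.20 and 2.79 in control unstimulated arrays. The same KO replicates 1 and 5 were at the bottom, and of the other 3 only replicate 3 reached into the control range. The log2 difference of -2.69 ± 0.80 passed the test (adjusted p = 0.0223), but without KO replicates 1 and 5 it was -0.89 ± 0.63 (adjusted p = 0.416), while Ccl17, at -0.48 (adjusted p = 0.032), and Ccl22, at -1.45 (adjusted p = 0.00143), were still called and smaller. Leaving out KO replicate 1 alone gave -2.05 for Ccl5 (adjusted p = 0.101), and leaving out KO replicate 5 alone gave -1.98 (adjusted p = 0.0884). With slide as a block, which compares KO with control only through slides shared with other treatments, the difference was 0.51 for Ccl5 (adjusted p = 0.844) and -1.92 for Ccl17 (adjusted p = 0.0934).

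The reference channel bears on these values. The Cy3 dye carried the same reference RNA on every array, and over all genes the range of log2 Cy3 across the 30 arrays had a median of 0.28. For Ccl17 that range was 4.85, larger than for 100% of the other genes after rounding, and for Ccl22 it was 2.65, larger than for 99.6% of genes. Cy3 moved with Cy5 of the same probe, with a correlation across the 30 arrays of 0.98 for Ccl17 and 0.93 for Ccl22. For Ccl2, Ccl3 and Ccl7 the Cy3 range was only 0.38 to 0.46, while Cy5 ranged over 6.52 to 7.45. A log2 ratio therefore understates the differences between 2 groups in Cy5 of Ccl17 and Ccl22. The Cy3 shift also bears on Ccl6, Ccl5 and Ccl9, whose Cy3 ranges were 1.88, 1.65 and 1.01. For Ccl6 this exceeded the Cy5 range of 1.67. Ccl4 had a Cy3 range of 0.84, and its Cy3 moved against Cy5, with a correlation of -0.80, so a ratio can overstate its differences. Its Cy3 differed by -0.39 between KO LPS 6 h and KO unstimulated arrays (limma, adjusted p = 0.000618). Why Cy3 moved was not tested. Values from Cy5 alone, quantile normalised between arrays, are given beside the ratio where the 2 scales differ in a call or clearly in size.

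**Figure D2:**
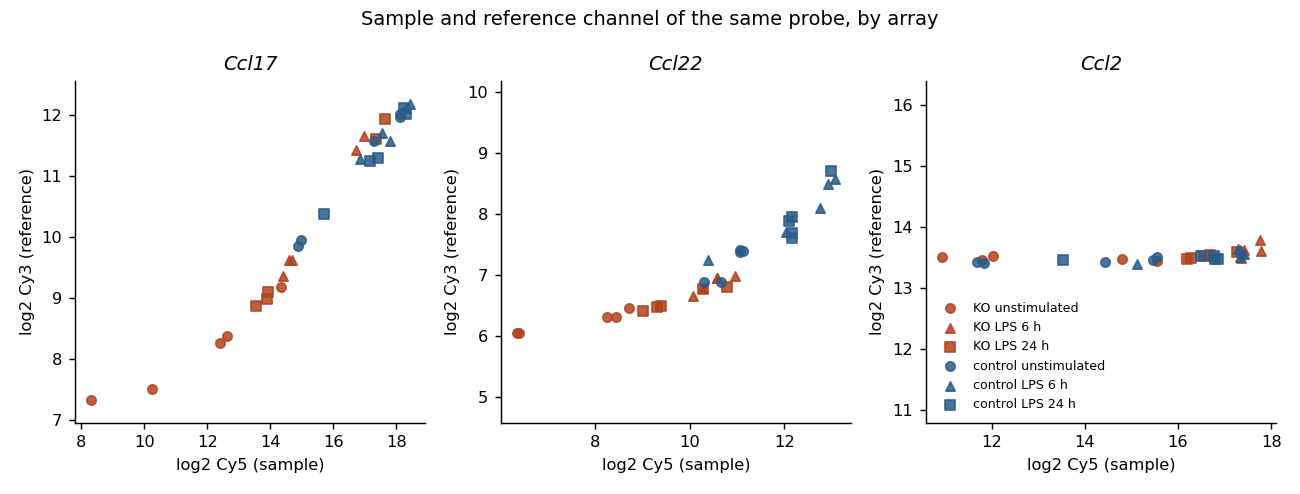
Log2 Cy3 (reference, y axis, all panels spanning the same number of log2 units) against log2 Cy5 (sample, x axis) of the same probe, 1 point per array, for Ccl17, Ccl22 and Ccl2. Cy3 rises with Cy5 for Ccl17 and Ccl22 and is nearly level for Ccl2, whose Cy3 range was 0.38.

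On Cy5 alone Ccl17 averaged 11.58 ± 2.34 in KO unstimulated arrays and 16.68 ± 1.63 in control unstimulated arrays (log2, SD, n = 5 each). The difference was -5.10 ± 0.96 (SE; limma, adjusted p = 0.000512), the arrays of the 2 genotypes did not overlap, and Cy3 of the same probe differed by -2.94 (adjusted p = 0.0075). Ccl22 averaged 7.63 ± 1.16 in KO and 10.85 ± 0.35 in control arrays on Cy5 alone, a difference of -3.21 ± 0.46 (adjusted p = 2.37e-05). Ccl5 differed by -3.21 ± 0.96 on Cy5 alone (adjusted p = 0.023). By Cy5 alone 7.69% of all genes were called higher and 7.2% lower, and 0 and 3 of the 9 members.

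The monocyte chemoattractants Ccl2 and Ccl7, ligands of CCR2, did not differ between genotypes beyond the spread in unstimulated cells. Ccl2 had log2 ratios of 0.55, -2.82, -1.91, -2.08 and 1.23 in KO arrays, against 0.34, -1.92, -2.08, 1.14 and 1.01 in control arrays. Each genotype held high and low arrays, and the ranges overlapped. Ccl7 averaged -1.02 ± 1.27 in KO and -0.68 ± 1.35 in control arrays, and its second probe gave a difference of -0.37 where the brighter one gave -0.34.

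Ccl3 and Ccl4, macrophage inflammatory proteins also known as MIP-1 alpha and MIP-1 beta, spread in the same way. Ccl4 had log2 ratios of 2.36, -0.61, -0.09, -0.01 and 3.55 in KO unstimulated arrays, against 3.59, -0.35, -0.36, 4.65 and 4.42 in control unstimulated arrays, a difference of -1.35 ± 0.91 (adjusted p = 0.355). Ccl3 averaged 1.07 ± 1.16 in KO and 0.57 ± 1.55 in control arrays. In KO cells the arrays high in Ccl2, Ccl3, Ccl4 and Ccl7, replicates 1 and 5, were the ones low in Ccl5, Ccl17 and Ccl22. In control cells replicates 2 and 3 were low in Ccl2, Ccl3, Ccl4 and Ccl7.

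Ccl6 and Ccl9, chemokines described in rodents that act through CCR1, had the narrowest ratios. The Ccl6 group means lay within a log2 range of 0.41 over all 6 groups and those of Ccl9 within 0.66, compared with 5.59 for Ccl4. On Cy5 alone the Ccl6 group means ran from 17.21 in control LPS 24 h to 18.12 in KO unstimulated arrays. Ccl6 averaged 6.08 ± 0.50 in KO and 5.88 ± 0.31 in control unstimulated arrays, and Ccl9 averaged 4.93 ± 0.21 in KO and 4.99 ± 0.06 in control unstimulated arrays.

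**Figure D3:**
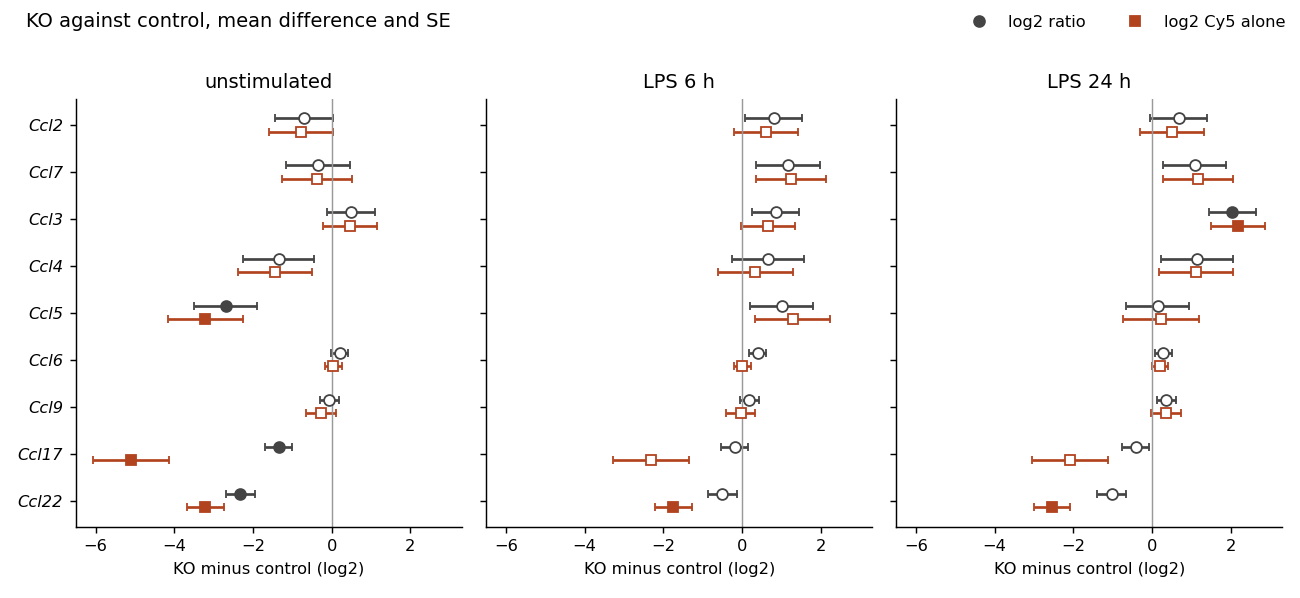
Difference of group means, KO minus control, with its SE (x axis, log2) for each CC chemokine (y axis) in unstimulated cells and after LPS, from the log2 ratios (circles) and from Cy5 alone (squares). Filled symbols passed the test at an adjusted p under 0.05, and on both plotted scales Ccl17 and Ccl22 lie to the left of 0 in each treatment; with the log ratios of the scanner software Ccl22 was at 0.37 at 6 h and 0.29 at 24 h.

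After 6 h of LPS 0 of the 9 members differed between genotypes on the ratio scale. Of all genes 6.22% were called higher and 5.89% lower in KO cells. At an unadjusted p under 0.05 the count of members was 0, and the share of all genes at that threshold was not counted. All 7 inflammatory members had a positive log2 difference, from 0.19 for Ccl9 to 1.18 for Ccl7, and Ccl17 and Ccl22 had negative ones of -0.18 and -0.50. Control replicate 3 of the later slide was low in several of them, and without that slide the difference was 0.26 for Ccl7, 0.42 for Ccl2, 0.14 for Ccl4 and 0.23 for Ccl5, whose difference with it was 1.01. With slide as a block Ccl4 was at -1.33 and Ccl9 at -0.30, and with the log ratios of the scanner software Ccl22 was at 0.37 (adjusted p = 0.776). Cy5 alone gave a different count: 0 members were called higher and 1 lower, Ccl22, while 5.91% of all genes were called higher and 6.58% lower. Ccl22 Cy5 was 10.29, 10.57, 10.58, 10.95 and 10.07 in KO LPS 6 h arrays, against 12.93, 13.07, 10.39, 12.75 and 12.04 in control LPS 6 h arrays. The lowest control array, replicate 3, is one of those on the later slide, and it was the only control array inside the KO range. The Ccl22 difference on Cy5 was -1.74 ± 0.46 (adjusted p = 0.0123) and that of Ccl17 was -2.31 ± 0.96 (adjusted p = 0.118).

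After 24 h of LPS Ccl3 was higher in KO cells, and it was the 1 member called on the ratio scale, beside 0 called lower (6.94% of all genes were called higher and 8.44% lower). Ccl3 had log2 ratios of 3.69, 3.62, 3.87, 1.88 and 2.72 in KO LPS 24 h arrays, against 1.22, 0.15, 0.64, 1.64 and 1.94 in control LPS 24 h arrays. Only KO replicate 4 overlapped the control range. The log2 difference was 2.04 ± 0.60 (adjusted p = 0.0206), a 4.1-fold higher level, and it was 3.05 among replicates 1 to 3 and 0.51 among replicates 4 and 5. The call was lost without the 2 arrays of the later slide (1.79 ± 0.62, adjusted p = 0.0538), and also without KO replicate 1, 2 or 3 or control replicate 2 (1.90, 1.92, 1.86 and 1.79). It was 3.07 ± 1.56 with slide as a block (adjusted p = 0.112). The other inflammatory members did not pass, with differences of 0.68 for Ccl2, 1.14 for Ccl4, 0.14 for Ccl5, 0.29 for Ccl6, 1.08 for Ccl7 and 0.36 for Ccl9, and without the later slide Ccl2 was at 0.10 and Ccl7 at 0.36.

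Ccl22 at 24 h had log2 ratios of 2.88, 3.1, 3.12, 4.17 and 3.85 in KO arrays, against 4.37, 4.06, 4.29, 4.79 and 4.73 in control arrays. The highest KO array reached just above the lowest control array. The ratio difference of -1.03 ± 0.37 did not pass (adjusted p = 0.0598), and it passed when replicate numbers entered as a block (adjusted p = 0.0309) and without the later slide (-1.12, adjusted p = 0.0444). With the log ratios of the scanner software its direction turned, to 0.29 (adjusted p = 0.827), and it was called in 8 of 23 alternative fits. On Cy5 alone the KO arrays stood at 9.02, 9.31, 9.39, 10.80 and 10.29 and the control arrays at 12.17, 12.98, 12.09, 12.17 and 12.17. These did not overlap, and the difference was -2.55 ± 0.46 (adjusted p = 0.000363), with Cy3 lower by 1.37 as well (log2 difference -1.37, adjusted p = 0.000214).

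Ccl17 at 24 h lay at 4.51 to 4.89 in KO arrays and at 5.01 to 5.34 in control arrays, without overlap, a ratio difference of -0.42 ± 0.34 (adjusted p = 0.473; exact permutation p = 0.00794). On Cy5 alone it was 13.55, 13.9, 13.93, 17.64 and 17.36 in KO arrays, against 17.16, 17.43, 15.69, 18.32 and 18.25 in control arrays. Replicates 4 and 5 were higher than replicates 1 to 3 in both genotypes, and within each of these sets every KO array was below every control array, by means of -2.97 among replicates 1 to 3 and -0.79 among replicates 4 and 5. The pooled Cy5 difference was -2.09 ± 0.96 (adjusted p = 0.148). With the set of the replicate (1 to 3, or 4 and 5) as a term, an alternative chosen after seeing these values, it was -2.09 ± 0.70 (adjusted p = 0.027), and at 6 h it was -2.31 ± 0.70 (adjusted p = 0.0174). By Cy5 alone 7.12% of all genes were called higher and 8.59% lower in KO cells at 24 h, and 1 member each way, Ccl3 and Ccl22.

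The response to LPS was measured within each genotype. In KO cells 8 of the 9 members rose at 6 h and 0 fell, with Ccl6 the exception, where 14.2% of all genes were called higher and 12.4% lower. In control cells 4 rose, Ccl2, Ccl3, Ccl4 and Ccl7, and 0 fell, where 7.16% of all genes were called higher and 4.51% lower. The KO comparisons at 6 and 24 h share the KO unstimulated arrays, and the control comparisons share theirs.

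**Figure D4:**
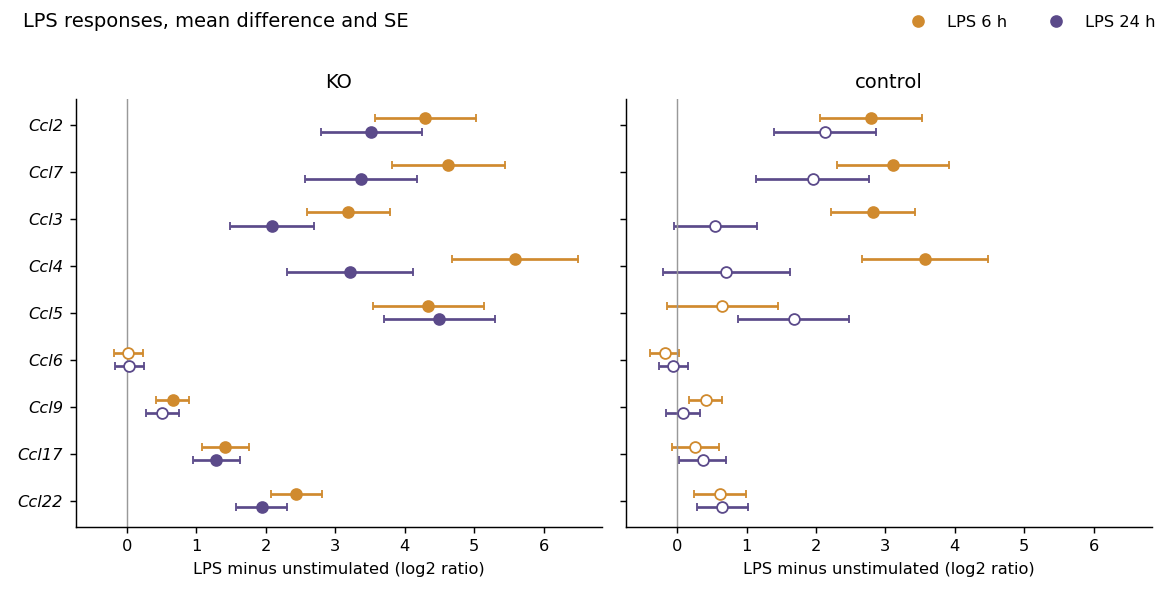
LPS minus unstimulated log2 ratio with its SE (x axis) for each CC chemokine (y axis) in KO and control cells at 6 h and 24 h. Filled symbols passed the test at an adjusted p under 0.05: 8 members in KO cells at 6 h and 7 at 24 h, and 4 and 0 in control cells.

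Ccl4 had the widest response on the ratio scale, and Ccl5 on Cy5 alone, where the KO rise at 6 h was 5.29 for Ccl4 and 5.98 for Ccl5. The log2 ratio of Ccl4 was 6.70, 6.71, 7.48, 6.09 and 6.17 in KO LPS 6 h arrays, all above the highest KO unstimulated array at 3.55, a log2 difference of 5.59 ± 0.91 (adjusted p = 4.1e-05) or 48.1-fold. In control LPS 6 h arrays it was 6.69, 6.81, 3.8, 6.05 and 6.42, with replicate 3 of the later slide far below the others and within the unstimulated control range of -0.36 to 4.65. The control difference was 3.57 ± 0.91 (adjusted p = 0.00975), and within the 1 slide that held both control groups, with 2 arrays of each, it was 2.21. Without the later slide the control difference was 4.10 ± 0.91 (adjusted p = 0.00127).

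Ccl2 and Ccl7 followed the same course. Ccl2 rose by 4.30 ± 0.73 in KO cells at 6 h (adjusted p = 7.23e-05) and by 2.79 ± 0.73 in control cells (adjusted p = 0.0121). Ccl7 rose by 4.63 ± 0.81 in KO cells (adjusted p = 0.000106) and by 3.11 ± 0.81 in control cells (adjusted p = 0.0117), although control replicate 3 stood at -1.24, below the control unstimulated mean. Without the later slide the control rise was 3.18 for Ccl2 and 4.03 for Ccl7 (adjusted p = 0.00096 and 4.52e-06). Ccl3 rose by 3.19 ± 0.60 in KO cells (adjusted p = 0.00025) and by 2.82 ± 0.60 in control cells (adjusted p = 0.00299), with no overlap in either. When only the 10 compared control arrays were fitted, 0 of these 4 control calls held (adjusted p of 0.065 to 0.111).

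Ccl5 rose in KO cells by 4.34 ± 0.80 at 6 h (adjusted p = 0.000181) and by 4.50 ± 0.80 at 24 h (adjusted p = 0.00022), and on Cy5 alone by 5.98 and 6.13. Without KO unstimulated replicates 1 and 5 the rises were 2.54 and 2.71 (adjusted p = 0.00441 and 0.00464). They were, with slide as a block, 4.30 ± 1.37 (adjusted p = 0.062) and 0.22 ± 2.42 (adjusted p = 0.943). It stood at 5.59, 5.79, 5.70, 4.70 and 4.89 in KO LPS 6 h arrays, against 5.45, 5.71, 1.2, 4.74 and 4.53 in control LPS 6 h arrays. Apart from control replicate 3 the 2 genotypes overlapped over most of their range after LPS, while the KO unstimulated mean of 0.99 lay below the control one of 3.68. The control response of Ccl5 was 0.65 ± 0.80 at 6 h (adjusted p = 0.7), or 1.43 ± 0.74 without the later slide (adjusted p = 0.17), and 1.68 ± 0.80 at 24 h (adjusted p = 0.179), although at 24 h all control arrays exceeded all unstimulated ones.

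Ccl22 in KO cells rose by 2.44 ± 0.37 at 6 h (adjusted p = 1.81e-05), to 3.8, 3.86, 3.92, 4.35 and 3.67, and by 1.94 ± 0.37 at 24 h (adjusted p = 0.000464). Its ratio after 6 h of LPS in KO cells, 3.92 ± 0.26, was close to that of unstimulated control cells, 3.8 ± 0.20. On Cy5 alone these were 10.49 ± 0.33 and 10.85 ± 0.35. Ccl17 rose in KO cells by 1.42 ± 0.34 at 6 h (adjusted p = 0.0028) and by 1.29 ± 0.34 at 24 h (adjusted p = 0.00919), and on Cy5 alone by 3.9 ± 0.96 and 3.69 ± 0.96 (adjusted p = 0.00302 and 0.00718). Without KO unstimulated replicates 1 and 5 the ratio rises at 6 h and 24 h were 0.56 and 0.43 for Ccl17 (adjusted p = 0.00487 and 0.043) and 1.57 and 1.08 for Ccl22 (adjusted p = 0.000206 and 0.0101). The Ccl17 calls were lost when only the compared arrays were fitted (adjusted p = 0.0648 and 0.108). Neither gene passed with slide as a block, with 0.95 and 2.12 for Ccl17 (adjusted p = 0.464 and 0.12) and 2.24 and 2.70 for Ccl22 (adjusted p = 0.0683 and 0.0825). In control cells neither passed on the ratio scale, with 0.62 and 0.65 for Ccl22 and 0.26 and 0.37 for Ccl17 at 6 h and 24 h. On Cy5 alone Ccl22 also rose in control cells, by 1.39 ± 0.46 at 6 h (adjusted p = 0.0475) and by 1.47 ± 0.46 at 24 h (adjusted p = 0.0366).

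Ccl9 rose by only 0.66 ± 0.24 in KO cells at 6 h (adjusted p = 0.0388), from arrays that agreed closely, 5.53 to 5.64 after LPS and 4.59 to 5.09 before. That call was lost on Cy5 alone (0.75 ± 0.38, adjusted p = 0.142) and when any of several single arrays was left out. Without the later slide Ccl9 rose in control cells as well, by 0.54 ± 0.16 (adjusted p = 0.0146). Ccl6 did not pass on the ratio scale in any of the 11 comparisons. On Cy5 alone it fell by 24 h, with log2 differences of -0.71 ± 0.21 in KO cells (adjusted p = 0.0156) and -0.87 ± 0.21 in control cells (adjusted p = 0.0068), and Cy3 of its probe differed by -0.79 and -0.56. By Cy5 alone, 11% of all genes were called higher and 18.8% lower in KO cells at 6 h, with 7 and 0 members, and 9.25% and 11.9% at 24 h, with 7 and 1 members. In control cells these shares were 5.71% and 6.61% at 6 h, with 5 and 0 members, and 5.71% and 6.42% at 24 h, with 1 and 1.

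At 24 h of LPS 7 members were above unstimulated cells in KO and 0 below, the exceptions being Ccl6 and Ccl9, where 10.3% of all genes were called higher and 7.85% lower. In control cells 0 members passed at 24 h, at shares of 7.22% and 5.08% of all genes. At an unadjusted p under 0.05 the count was 3, without a share of all genes to set beside it. Ccl2 missed with 2.13 ± 0.73 (adjusted p = 0.0538) and Ccl7 with 1.95 ± 0.81 (adjusted p = 0.119). Control LPS 24 h replicate 2 of the later slide was at -0.52 for Ccl2, against 1.90 to 2.76 in the other 4, and at -1.60 for Ccl7, against 1.38 to 2.51. Without the later slide both were called, Ccl2 at 2.72 ± 0.68 (adjusted p = 0.00548) and Ccl7 at 2.67 ± 0.55 (adjusted p = 0.001).

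Between 6 h and 24 h of LPS Ccl3 fell in control cells, where 3.29% of all genes were called higher and 2.19% lower, and 0 and 1 members. The log2 ratio of Ccl3 was 1.12 ± 0.73 in control LPS 24 h arrays and 3.40 ± 0.74 in control LPS 6 h arrays, with no overlap, a difference of -2.28 ± 0.60 (adjusted p = 0.0245). Within the 2 slides that held both groups it was -2.32 and -2.05, and the call was lost without control LPS 24 h replicate 2 (-2.04, adjusted p = 0.0599) or 3 and without control LPS 6 h replicate 1 or 2. Ccl4 differed by -2.85 ± 0.91 in control cells (adjusted p = 0.0644), and passed with replicate numbers as a block (adjusted p = 0.0172). The other 7 members in control cells had differences from -1.16 for Ccl7 to 1.03 for Ccl5. In KO cells 0 members passed, where 3.54% of all genes were called higher and 4.2% lower. The count at an unadjusted p under 0.05 was 1, without a share of all genes to set beside it. Ccl4 had 4.28, 4.22, 4.48, 3.86 and 4.40 in KO LPS 24 h arrays, all below the 6.09 to 7.48 of KO LPS 6 h arrays, and its difference of -2.38 ± 0.91 had an adjusted p of 0.109 in the fit over all arrays. It passed when only these 10 arrays were fitted (adjusted p = 0.000456) and when replicate numbers entered as a block (adjusted p = 0.0362), and with slide as a block its direction turned, to 2.56 ± 2.76 (adjusted p = 0.446). The differences of Ccl5 and Ccl22 in KO cells were 0.16 ± 0.80 and -0.50 ± 0.37, and neither passed.

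The difference of the LPS responses, KO minus control, tests directly whether the genotypes responded unequally. Of the members 0 were called higher and 0 lower at 6 h, where 0.293% of all genes were called higher and 0.142% lower, and 0 and 0 at 24 h, where the shares were 0.426% and 0.453%. The point estimates on the ratio scale were positive for all 9 members at both times, but not in every fit. With slide as a block Ccl6 and Ccl9 were negative at 6 h (-0.12 and -0.13) and Ccl5 and Ccl6 at 24 h (-4.74 ± 3.70 and -1.74 ± 1.08), and on Cy5 alone Ccl6 was at -0.03 at 6 h. Ccl4 passed at 24 h in the fit with slide as a block (9.14 ± 3.67, adjusted p = 0.0434). At an unadjusted p under 0.05 the counts were 3 at 6 h and 2 at 24 h. The share of all genes at that threshold was not counted, so these counts have no background. On the ratio scale Ccl5 had the largest at 6 h, 3.70 ± 1.13 (adjusted p = 0.209), which was 2.91 without the later slide. Without KO unstimulated replicates 1 and 5 it was 1.90, below Ccl4 at 3.30, Ccl2 at 2.78 and Ccl7 at 2.34. In the fit over all arrays it was followed by Ccl5 at 24 h, 2.83 ± 1.13 (adjusted p = 0.292), and Ccl4 at 24 h, 2.49 ± 1.28 (adjusted p = 0.477). Ccl22 had 1.81 ± 0.52 at 6 h (adjusted p = 0.168) and 1.29 ± 0.52 at 24 h (adjusted p = 0.303). Ccl17 had 1.17 ± 0.49 and 0.92 ± 0.49 (adjusted p = 0.491 and 0.497). On Cy5 alone Ccl22 was smaller, at 1.47 ± 0.65 and 0.66 ± 0.65 (adjusted p = 0.462 and 0.723). Ccl17 was larger there, at 2.79 ± 1.36 and 3.00 ± 1.36 (adjusted p = 0.535 and 0.308). Ccl5 was at 4.50 ± 1.36 and 3.44 ± 1.36 on Cy5 alone (adjusted p = 0.177 and 0.228). In the fit over all arrays a larger number of calls in KO than in control cells is therefore not shown to be a difference between the genotypes in any member.

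**Figure D5:**
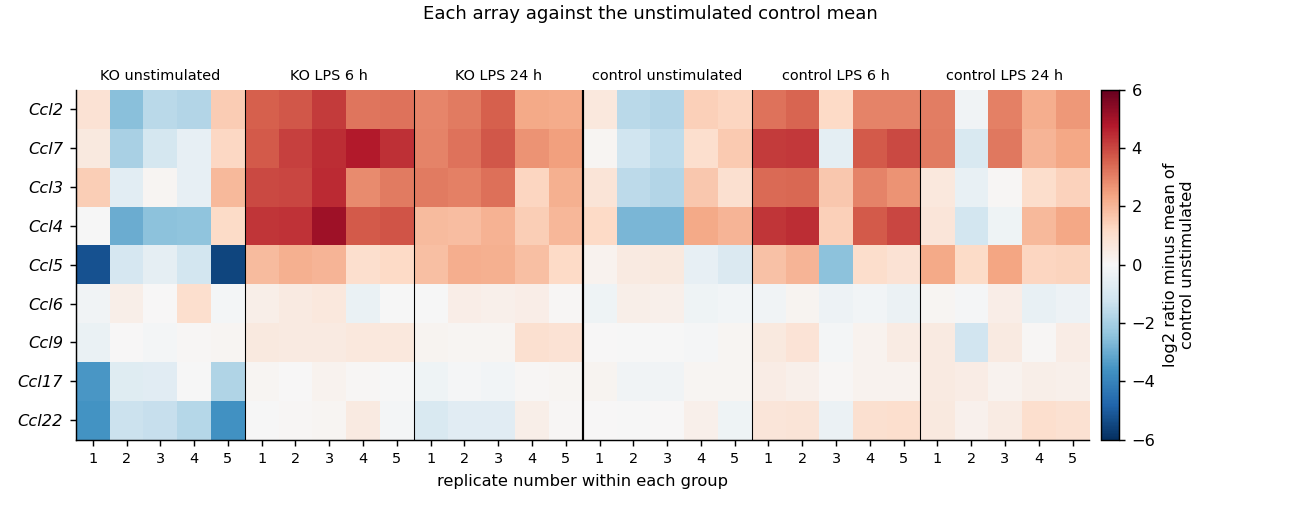
Log2 ratio of each CC chemokine (rows) on each of the 30 arrays (columns, replicates 1 to 5 of each group) minus the mean of the 5 control unstimulated arrays. KO unstimulated replicates 1 and 5 are low in Ccl5, Ccl17 and Ccl22, and replicate 3 of control LPS 6 h and replicate 2 of control LPS 24 h lack the rise of Ccl7 seen in the other arrays of their groups.

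The 2 kinds of chemokine were set side by side by averaging each array's shift from the control unstimulated mean. Over Ccl2, Ccl3, Ccl4, Ccl5 and Ccl7 the mean shift was 3.11 to 4.04 in KO LPS 6 h arrays, 1.91 to 2.97 in KO LPS 24 h arrays, 2.87 to 3.53 in control LPS 6 h arrays other than replicate 3, and 1.67 to 1.99 in control LPS 24 h arrays other than replicate 2. The 2 arrays of the later slide had shifts of 0.24 and -0.30. For Ccl17 and Ccl22 together it was -3.53 to -0.87 in KO unstimulated arrays, -0.07 to 0.30 in KO LPS 6 h arrays and -0.60 to 0.23 in KO LPS 24 h arrays. In control LPS 6 h arrays other than replicate 3 it was 0.55 to 0.60. In control LPS 24 h arrays other than replicate 2 it was 0.36 to 0.67. The 2 arrays of the later slide were at -0.13 and 0.34. Those 5 members were taken because LPS raised them, so their average is a description. Over all 7 inflammatory members, Ccl6 and Ccl9 included, the mean shift was 2.26 to 3.05 in KO LPS 6 h arrays and 1.56 to 2.18 in KO LPS 24 h arrays. All these shifts are on the ratio scale, which understates differences of Ccl17 and Ccl22. On Cy5 alone Ccl17 averaged 15.48 in KO LPS 6 h and 15.27 in KO LPS 24 h arrays, against 16.68 in control unstimulated arrays. Ccl22 averaged 10.49 and 9.76, against 10.85.

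The members also sorted by how they varied between arrays of the same group. After subtracting group means, Ccl2, Ccl3, Ccl4 and Ccl7 correlated with each other at 0.68 to 0.92 across the 30 arrays, which share the reference RNA and 9 slides. Ccl5 went with Ccl17 (0.65) and Ccl22 (0.75), and Ccl17 with Ccl22 (0.70). Between Ccl2 and Ccl17 the value was -0.38 and between Ccl2 and Ccl22 it was -0.37. Ccl6 reached 0.56 with Ccl5 but 0.21 with Ccl22, and Ccl9 reached 0.54 with Ccl7 but 0.06 with Ccl3. Arrays that stood apart from their groups enter these values. Among them were KO unstimulated replicates 1 and 5, low in Ccl5, Ccl17 and Ccl22 and high in Ccl2, and control LPS 6 h replicate 3. How far the correlations rest on these arrays was not tested.

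By the pattern over all 30 arrays, the genes most like Ccl2 were Ccl7, Il1b and Il1rn (Pearson r of 0.95, 0.94 and 0.92), and those most like Ccl7 were Tnf, Nt5c3 and Gch1 (0.97, 0.96 and 0.96). The genes most like Ccl3 were Ccl4, Naa25 and Rffl (0.92, 0.89 and 0.89), and those most like Ccl4 were Hes2, Ccl3 and Appl1 (0.92, 0.92 and 0.91). Ccl5 was followed by Irf9, Traf1 and Gbp2 (0.94, 0.93 and 0.92), of which Irf9 and Gbp2 are known interferon-responsive genes. Ccl17 was followed by Cd83, Il4i1 and Aldh1a2 (0.93, 0.93 and 0.90), of which Cd83 is a dendritic cell maturation marker. Ccl22 was followed by Tspan33, Sema7a and Bloc1s6 (0.96, 0.96 and 0.92). Ccl6 was followed by Chil4, Lyz2 and Txnip (0.89, 0.80 and 0.76) and Ccl9 by Sdsl, Hilpda and Atf3 (0.86, 0.85 and 0.85).

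Among the other CC chemokines, 6 of 12 listed genes were tested. Ccl24, an eosinophil attractant that binds CCR3, was the 1 called in KO against control and was lower in each treatment, with log2 differences of -2.11 in unstimulated cells (adjusted p = 0.00218), -1.81 at 6 h (adjusted p = 0.009) and -1.80 at 24 h (adjusted p = 0.00753). Ccl12, a mouse CCR2 ligand, rose at 6 h by 2.25 in KO cells (adjusted p = 0.00405) and by 2.16 in control cells (adjusted p = 0.0127). Ccl25 was higher in KO cells at 24 h than in unstimulated KO cells, by 1.01 (adjusted p = 0.03). The median KO minus control difference of the 6 was 0.08 in unstimulated cells, where that of all genes was -0.04.

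Of 14 listed CC chemokine receptors 8 were tested. Ccr2, the receptor for Ccl2 and Ccl7, was lower in KO cells at every time, with means of 3.20 in KO and 6.59 in control unstimulated arrays, a log2 difference of -3.40 ± 0.53 (adjusted p = 6.67e-05), and differences of -4.09 at 6 h and -3.49 at 24 h. Ccr2 also fell with LPS, in KO cells at 6 h (-1.81, adjusted p = 0.012) and at 24 h in KO (-2.09) and control cells (-2). Ccrl2, an atypical receptor that binds chemerin, was higher in KO cells after LPS, by 2.52 at 6 h (adjusted p = 0.0104) and 2.14 at 24 h (adjusted p = 0.0253), and rose with LPS in both genotypes. Ccr7, the receptor that guides mature dendritic cells to lymph nodes, was lower in unstimulated KO cells by a log2 difference of -1.79 (adjusted p = 0.018) and rose in KO cells with LPS by 1.68 at 6 h and 1.84 at 24 h. In unstimulated cells 0 receptors were called higher and 2 lower, at shares of 6.94% and 7.13% of all genes, and the median difference of the 8 was -0.14.

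All 11 listed regulators of the NF-kB and STAT6 pathways were tested. In unstimulated cells 0 were higher and 3 lower in KO, where 6.94% of all genes were called higher and 7.13% lower. The 3 were Irf4, which is the deleted gene, Nfkbia, the inhibitor that NF-kB itself induces (-1.49, adjusted p = 0.0148), and Relb, a subunit of the noncanonical pathway (-1.08, adjusted p = 0.0117). The median difference of the list was -0.63, against -0.04 for all genes. At 6 h Batf3 was lower in KO cells beside Irf4 (-1.04, adjusted p = 0.0137), and at 24 h Rel (-1.01, adjusted p = 0.019) and Relb (-0.94, adjusted p = 0.0274). LPS raised 7 of the 11 in KO cells at 6 h, among them Nfkbia by 2.94, Nfkb2 by 2.37, Nfkb1 by 1.62 and Rel by 1.56, and 3 in control cells, Batf by 1.21, Rel by 1.10 and Irf4 by 0.90. Of all genes 14.2% were called higher in KO and 7.16% in control cells. In the difference of the responses at 6 h 0 of the 11 were called higher and 0 lower, so these counts do not show a genotype difference.

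Markers of dendritic cells and of other cell types moved with genotype beside the chemokines. The mean log2 ratio of the 14 tested dendritic cell markers was 1.77 to 2.45 in KO and 2.73 to 3.03 in control unstimulated arrays, and 5 of them were called lower in KO: Cd74, H2-Aa, H2-Eb1, Ciita and Dpp4, of which all but Dpp4 belong to MHC class II presentation. Of all genes 7.13% were called lower there. Sirpa (0.87), Itgax (0.40) and Kit (0.25) lay higher in KO without a call, and H2-Ab1 was at -0.04. All 17 listed dendritic cell markers had a probe above background on some array. For 12 macrophage and monocyte markers the mean was 2.51 to 3.36 in KO and 1.81 to 2.91 in control arrays, with Marco and Cd14 called higher. Of that list C1qb (-0.97), Fcgr1 (-0.67), C1qa (-0.42), C1qc (-0.33) and Cx3cr1 (-0.07) lay lower in KO without a call. For 9 neutrophil markers the mean was 1.07 to 2.12 in KO and 1.72 to 3.06 in control arrays, with Ltf called lower. Mmp8 (0.72) and Csf3r (0.19) lay higher without a call, while Elane was not above background on any array. B cell markers lay at -0.93 to -0.70 in KO and -0.75 to -0.58 in control arrays, and T and NK cell markers at 0.70 to 1.00 in KO and 0.44 to 0.60 in control arrays. Mast cell, basophil and eosinophil markers lay at 0.40 to 0.64 in KO and 0.95 to 1.55 in control arrays, and stromal markers at -3.17 to -3.08 in KO and -3.40 to -3.12 in control arrays. Siglecf (-1.68), Il7r (0.88) and Pecam1 (-0.49) were the called genes of these last lists. In KO unstimulated replicates 1 and 5, low in Ccl5, Ccl17 and Ccl22, the dendritic cell marker mean was 1.77 and 2.04, the neutrophil marker mean 1.63 and 2.12, and the macrophage and monocyte marker mean 2.81 and 2.51, which was 3.28 to 3.36 in the other 3 KO arrays. At 6 h of LPS the macrophage and monocyte marker mean was 2.57 to 3.64 in KO and 1.90 to 3.39 in control arrays, and the neutrophil marker mean 1.11 to 2.13 in KO and 2.07 to 3.18 in control arrays. Of the dendritic cell markers 5 were called lower in KO at 6 h and 1 higher, Sirpa (1.14). Of all genes 5.89% were called lower and 6.22% higher there. At 24 h of LPS the neutrophil marker mean was 1.03 to 2.27 in KO and 1.87 to 3.69 in control arrays, with S100a9 (-3.43), Ltf (-2.06), Cxcr2 (-1.80) and Ngp (-1.45) called lower, and Siglecf was at -2.61. The neutrophil markers Mmp8 (0.51) and Csf3r (0.32) lay higher in KO there without a call. Dendritic cell markers at 24 h lay at 2.25 to 2.70 in KO and 2.68 to 3.18 in control arrays, and Cd14 was higher in KO (1.83). C1qb (-0.69), C1qc (-0.62) and C1qa (-0.40), of the same list as Cd14, lay lower without a call. The macrophage and monocyte marker mean at 24 h was 3.15 to 3.19 in KO replicates 1 to 3. It was 1.94 and 2.31 in KO replicates 4 and 5, the replicates in which Ccl3 was lower. Control arrays went the other way. Their marker mean was 1.52 and 1.62 in replicates 4 and 5, where Ccl3 was highest (1.64 and 1.94). In control replicates 1 to 3 it was 2.01 to 2.94, with Ccl3 at 0.15 to 1.22. The part of these shifts in the chemokine differences was not tested, and in bulk RNA fewer cells of a type and less RNA per cell cannot be told apart.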

How the data were processed

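RNA of 30 samples was hybridised to 2-colour Agilent mouse arrays, sample in Cy5 and universal reference in Cy3, per the labels. Per the file headers, Agilent Feature Extraction wrote the deposited intensity of each spot and its log10 ratio. The authors' deposited value table holds log2 ratios, processed with limma per the submitters' processing notes, and its columns, with medians of 0.00584 to 0.0183, correlated at 0.999885 to 0.999998 with the ratios computed here; it was used only for this comparison. From the median signal and median background intensities, background was corrected by normexp with an offset of 50 and ratios were normalised within arrays by loess, with control spots at weight 0. Spots of a probe were averaged. Of 41174 probes 22951 were named through their accession, giving 16358 genes, and the brightest Cy5 probe stood for a gene. A gene was kept where the probe was well above background on all 5 arrays of at least 1 group, which left 11262. The limma (3.58.1, R 4.3.3) fit had 1 mean per group over all 30 arrays. P-values were adjusted by Benjamini-Hochberg over all genes in each of 11 comparisons, and called means an adjusted p under 0.05. The fit was tested on simulated data with independent noise on each array. The simulation had no slide effects, replicate sets or outlying arrays, so it does not bear on how these affect the calls. The number of arrays limits the precision. The members and gene lists were chosen with earlier results of these data known. The rule names all 9 members in every comparison, of which the text gives some only as a count or range. Of the lists of other CC chemokines, receptors and regulators up to 4 called genes with the widest difference are named; markers lie outside this rule and were named after their values were seen. The 3 genes with the highest Pearson r are named for each member. Same-numbered arrays deviated together in every pair in only 3 of 9 comparisons of 2 groups, and the labels do not say that a number marks a shared animal, so the fit has no block. Alternatives are given under the dependence on processing.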

Additional observations from a re-analysis of the deposited data

Results flagged for a closer look

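In 8 of 54 sets of 5 arrays, 1 array stood apart from the other 4 by Dixon's criterion, which chance meets in about 1 of 20. All 8 concern the 2 arrays of the later slide. In control LPS 6 h replicate 3 the log2 ratio was 0.90 for Ccl2 (the nearest other array of the group was at 2.66), 3.8 for Ccl4 (6.05), 1.2 for Ccl5 (4.53), -1.24 for Ccl7 (3.00) and 3.46 for Ccl22 (4.54). In control LPS 24 h replicate 2 it was -0.52 for Ccl2 (1.90), -1.60 for Ccl7 (1.38) and 3.83 for Ccl9 (5.05).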

How the results depend on the processing

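Of 2502 member values under alternative settings 2406 kept their side of the threshold and, where called, their direction, 44 passed newly, 48 no longer passed and 4 reversed. The reversals were Ccl6 at 24 h of LPS in KO cells (-0.71 on Cy5 alone, and -0.71 with the added term for replicates 1 to 3 against 4 and 5), Ccl6 in control cells at 24 h against 6 h (-0.67 with that term) and Ccl5 in unstimulated KO against control cells with slide as a block (0.51). Counting uncalled values, 94 had the other sign, 25 of them with slide as a block, among them Ccl4 at 24 h against 6 h in KO cells (2.56), and 4 with the scanner software's log ratios, among them Ccl22 in KO against control (0.37 at 6 h and 0.29 at 24 h). Shares of all genes called are given above for Cy5 alone but not for the other fits. A moved count of members is therefore not read as a result about the members. Counts of members called moved as follows. In KO against control unstimulated cells 3 became 1 with slide as a block and 1 when only the compared arrays were fitted. In KO against control at 6 h 0 became 1 on Cy5 alone and 2 with the added term. In KO against control at 24 h 1 became 2 with median centring, Cy5 alone, the replicate block or a term for the replicate sets, 3 with the compared arrays only or Cy5 with the term, and 0 with slide as a block. With slide as a block, LPS against unstimulated gave 4 at 6 h and 3 at 24 h in KO cells, against 8 and 7, and 2 at 6 h in control cells, against 4, which became 0 with the compared arrays only. In control cells at 24 h against unstimulated, 0 became 2 on Cy5 alone, with the compared arrays only or without the later slide, 1 with the replicate block, the term or slide as a block, and 4 on Cy5 with the term. Between 24 h and 6 h, 0 became 1 in KO cells with the replicate block or the term and 2 with the compared arrays only, and in control cells 1 became 2 with the replicate block or the term, 3 on Cy5 with the term and 0 with slide as a block. The difference of responses at 24 h gave 1, Ccl4, with slide as a block. Leaving out 1 replicate gave 0 to 2 in KO against control at 24 h, 0 to 2 in control cells at 24 h against unstimulated and 0 to 2 in control cells at 24 h against 6 h. The replicate block used the shared replicate numbers. In none of the comparisons did every array correlate best with its own number, but within KO cells 4 of 5 did in each. For KO LPS 24 h against 6 h the correlations of same-numbered arrays were 0.79 to 0.87. The labels do not say what a number marks, so a call lost or gained under the block is a property of that fit. The term on Cy5 and leaving out KO unstimulated replicates 1 and 5 together were chosen after seeing the data. Ccl22 in KO unstimulated replicates 1 and 5 was not well above background, which limits its difference there. The causes of these changes were not tested.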
